A study of Mus musculus with 6 samples.

Results

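The BMP pathway and the Id genes were examined in the mouse lens through 10 genes: the ligands Bmp4 and Bmp7, the receptors Bmpr1a and Bmpr2, the signal transducers Smad1 and Smad5, and the targets Id1, Id2, Id3 and Id4. The members were every probe annotated to one of these 10 symbols, which gave 24 of the 45281 probes on the array. The lenses were taken at postnatal day 4 (P4) from Tdrd7 null and Tdrd7 heterozygous mice, 3 arrays each. Both genotypes share a mixed background of C57BL/6J and C3A.Blia mice. The comparison animals carry 1 mutant Tdrd7 allele and are not wild type, and the labels give neither the nature of the allele nor whether lenses were pooled or arrays came from separate mice. The p-values therefore measure the spread between these arrays, which may be technical.

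Bone morphogenetic proteins (BMPs) are secreted ligands that bring together type I receptors, such as BMPR1A, and the type II receptor BMPR2. The activated type I receptor phosphorylates SMAD1 and SMAD5, which enter the nucleus with SMAD4 and switch on direct targets, the Id genes being the classic ones. Id proteins have a helix-loop-helix without a DNA-binding region, so they capture E proteins and keep them off DNA. In the mouse, Bmp4 and Bmp7 are needed for lens induction, and signalling through type I BMP receptors is needed for normal growth and fiber elongation of the lens.

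No difference between the genotypes passed the test for any of the 10 genes. Of the 10 genes, 9 had a probe that was detected on every array, and Bmp4 lay at the limit of detection. The null arrays were spread more widely than the heterozygous arrays for 14 of 17 tested probes, a share that was not worked out over all probes. For 10 of the 17 null array b was the farthest array, as it was for 44.2% of all tested probes. Probes of the same gene differed in opposite directions by sign for Bmpr1a, Smad1, Id2 and Id4, and every 95% confidence interval included 0.

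Letters a, b and c name the arrays of each genotype. Each of the 6 arrays detected between 13901 and 15765 probes, taking a detection p under 0.05 as detected, and raw medians ran from 69 to 76.6. The Tdrd7 probe averaged 1191 ± 82 in null lens and 12861 ± 336 in heterozygous lens (raw signal, SD, n = 3 each), so it was lower in every null array; where it lies relative to the mutation was not analysed here. Of 9 lens-defining genes, among them alpha crystallins and Mip, 8 had a tested probe. Null array b stood apart from the rest. Its median correlation with the other arrays was 0.965 (log2 signals of the tested probes), where that of each other array was at least 0.986, and it was the array farthest from the median for 44.2% of tested probes.

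Of the 24 probes, 17 were detected on at least 3 of the 6 arrays and were tested, 14 of them on all 6, while 6 were detected on no array. Over all probes, 32.3% passed the same filter. Each of the 10 genes kept at least 1 tested probe, and every tested probe was detected on at least 1 array of each genotype. Several tested probes were available for 5 of the genes, Bmpr1a, Smad1, Smad5, Id2 and Id4. Raw signals below include an unspecific background of roughly the array median, and signals of different probes were not set against each other.

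The genotypes were compared with limma on background-corrected, quantile-normalised log2 signals, with Benjamini-Hochberg adjustment over all 14636 tested probes. Of the 17 probes, 0 passed an adjusted p of 0.05, against 0.0137% of all tested probes (2 probes, the Tdrd7 one included). At an unadjusted limma p under 0.05 there were also 0 of 17, where the share over all tested probes was 4.11%. The smallest adjusted p among the 17 was 0.964. By sign alone 11 probes were higher and 6 lower in null lens. The 95% confidence interval of the difference lay within a 2-fold change in either direction for 14 of the 17 probes. The other 3 intervals, those of 1 probe each of Bmpr1a, Bmpr2 and Id2, reached below a 2-fold lower signal in null lens. With 3 arrays a group, a change within these intervals was not excluded. The intervals are not adjusted for the 14636 probes tested, so larger changes could also fail to pass.

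**Figure D1:**
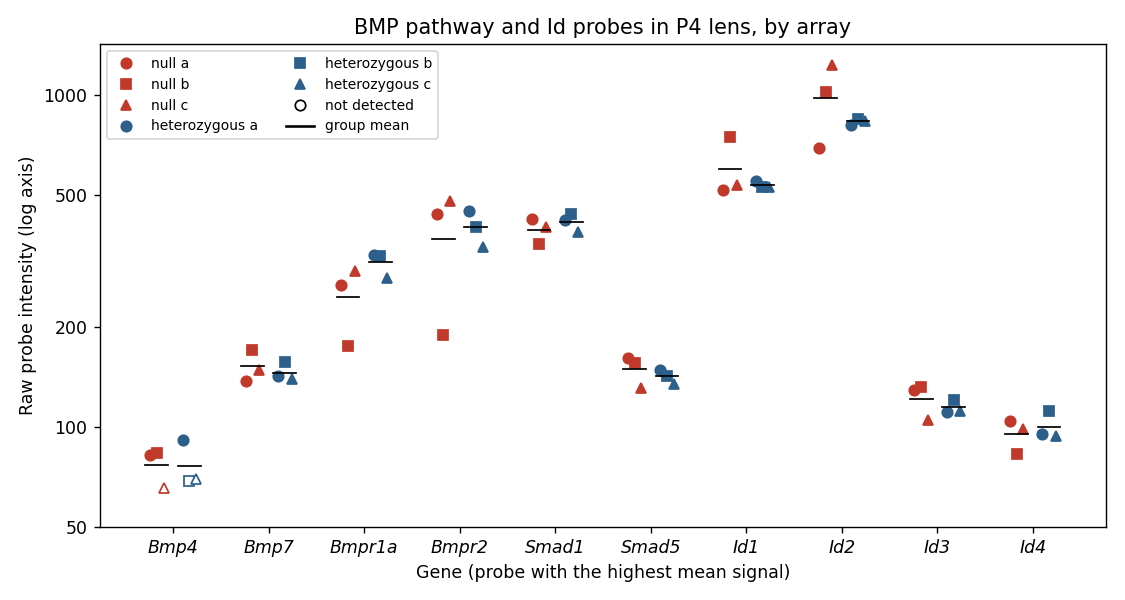
Raw probe intensity on a log axis for the probe with the highest mean signal of each gene, with null arrays in red left of heterozygous arrays in blue, a circle, square or triangle for array a, b or c, open symbols for arrays without detection and black lines for group means. Null array b (red squares) lies lowest of all arrays for Bmpr1a, Bmpr2, Smad1 and Id4 and highest for Bmp7, Id1 and Id3.

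Bmp4 encodes a ligand that the early eye needs for lens induction. Its better probe (ILMN_1215252) read 82.2, 83.4 and 65.5 in null lens, and 91.3, 68.7 and 69.8 in heterozygous lens, each in the order of arrays a, b, c as for all probes below. It was detected on 2 of 3 null and 1 of 3 heterozygous arrays, and the groups overlapped. The log2 difference, null minus heterozygous as throughout, was 0.08 (SE 0.231, limma adjusted p = 0.982), and it was -0.02 without null array b. The second Bmp4 probe was detected on no array.

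Bmp7, the other ligand, was detected on all 6 arrays with 1 of its 2 probes. That probe (ILMN_2589662) gave 138, 170.3 and 149 in null lens, against 142, 157 and 139 in heterozygous lens. In raw signal null array b was the highest and null array a the lowest of the 6. After normalisation heterozygous array a was the lowest, and the groups overlapped. The log2 difference was 0.09 (SE 0.163, 95% confidence interval -0.27 to 0.46, limma adjusted p = 0.964), and -0.01 without null array b.

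Bmpr1a encodes the type I receptor ALK3, and its 2 probes, both annotated to the same RefSeq transcript, differed in opposite directions. The probe ILMN_1251119 read 267, 175 and 295 in null lens, against 331, 327 and 281 in heterozygous lens. After normalisation all null arrays lay below all heterozygous arrays for this probe, with a log2 difference of -0.51 (SE 0.247, limma unadjusted p = 0.0667, adjusted p = 0.964). Without null array b the difference was -0.19.

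The second Bmpr1a probe (ILMN_2653312) read 112, 123 and 126.5 in null lens and 102, 113 and 106 in heterozygous lens. Here all normalised null values lay above all heterozygous values, with a log2 difference of 0.35 (SE 0.17, limma unadjusted p = 0.0709, adjusted p = 0.964), and 0.35 without null array b. These 2 probes were the only ones of the 17 whose groups did not overlap, and over all tested probes 10.9% had groups that did not overlap, 5.43% with null higher and 5.47% with null lower. Since the probes disagree in sign, no direction can be given for Bmpr1a.

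Bmpr2 encodes the type II receptor, and only 1 of its 4 probes was tested. This probe (ILMN_1217466), for which the annotation gives no accession, read 436, 189.6 and 479 in null lens, and 448, 400.0 and 349 in heterozygous lens. Null array b differed by -1.48 log2 units from the mean of the other 5 arrays, which varied with an SD of 0.15, while the raw readings of null arrays a and c lay within or above the heterozygous range. The log2 difference was -0.32 (SE 0.376, limma adjusted p = 0.964). Without null array b it was 0.22, so the sign rested on that array. The 3 probes annotated to the Bmpr2 RefSeq transcript were at background, with detection on 1 array for one of them and on none for the others.

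**Figure D2:**
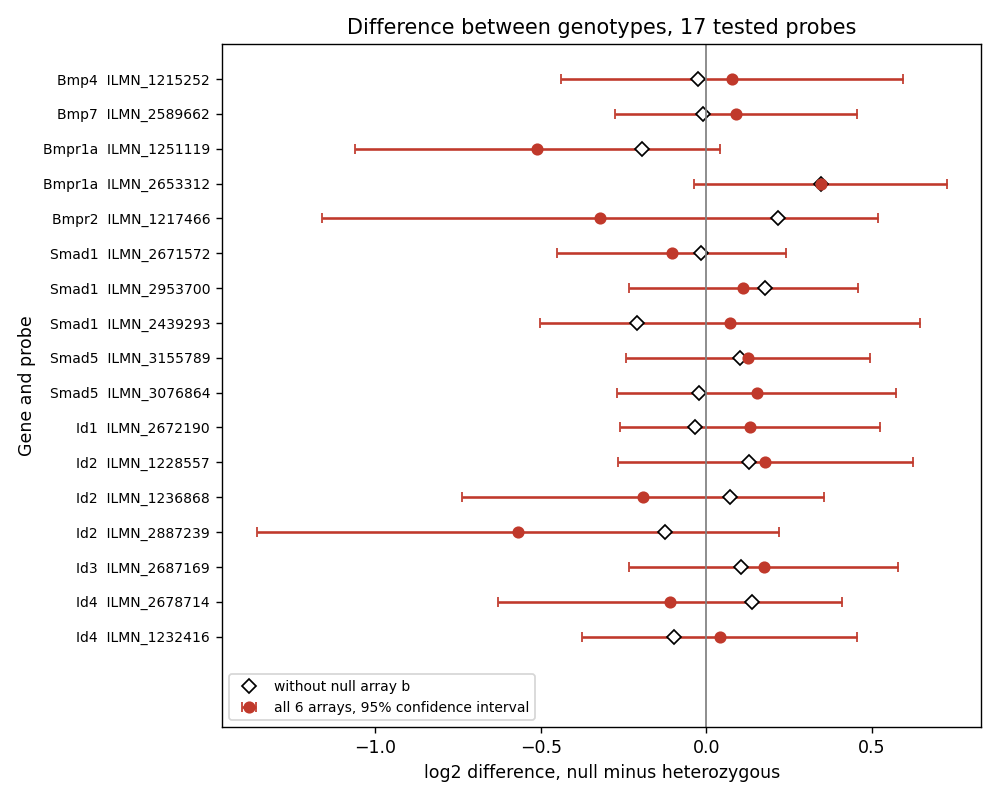
Log2 difference, null minus heterozygous, for the 17 tested probes, with red points and bars for the estimate on all 6 arrays and its 95% confidence interval and open diamonds for the estimate without null array b. All intervals include 0, and the diamond lies on the other side of 0 from the red point for 9 of the 17 probes, the Bmpr2 probe among them.

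Smad1 and Smad5 encode the receptor-activated SMADs of the BMP branch. For Smad1 the brightest probe (ILMN_2671572) gave 421, 357 and 400.0 in null lens and 420.3, 437 and 387 in heterozygous lens. Its log2 difference was -0.10 (SE 0.154, limma adjusted p = 0.964), and the groups overlapped. A second Smad1 probe (ILMN_2953700) gave 368, 333 and 371 in null lens against 335, 378 and 292 in heterozygous lens, a log2 difference of 0.11 (SE 0.154). The 95% confidence intervals of these probes spanned folds of 0.732 to 1.18 and of 0.85 to 1.37.

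A weaker Smad1 probe (ILMN_2439293) read 112, 143 and 88.2 in null lens, and 117, 109 and 103 in heterozygous lens. Null arrays b and c were its highest and lowest readings, and the log2 difference was 0.07 (SE 0.257), or -0.21 without null array b. The other 2 Smad1 probes were detected on no array.

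Smad5 was measured by ILMN_3155789 with 162, 156 and 131 in null lens, against 149, 142 and 135 in heterozygous lens. Null array c was the lowest and null array a the highest, and the log2 difference was 0.13 (SE 0.165, limma adjusted p = 0.964). A second Smad5 probe near background differed by 0.15 (SE 0.188), and by -0.02 without null array b, whose reading of 90.8 was the highest of the 6.

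The Id genes are the transcriptional readout of the pathway. By their brightest probes, Id1, Id2 and Id3 were higher and Id4 lower in null lens by sign alone, with a median log2 difference of 0.15 over the 4 genes, where the median over all 8626 tested genes was -0.01. None of these differences passed. A stretch upstream of the start site is shown for Id2, Id3 and Id4, since BMP-activated SMADs are known to act through GC-rich GGCGCC elements and through CAGAC elements in such promoters. These come from RefSeq on build GRCm38.p6, 5′ to 3′ on the gene's strand, and the capitals mark the first such element in the 250 bases before the start.
Id2, chr12:25096288-25096342, minus strand: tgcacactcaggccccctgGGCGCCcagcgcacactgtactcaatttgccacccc
Id3, chr4:136143625-136143689, plus strand: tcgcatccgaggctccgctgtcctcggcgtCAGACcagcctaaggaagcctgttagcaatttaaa
Id4, chr13:48260938-48261003, plus strand: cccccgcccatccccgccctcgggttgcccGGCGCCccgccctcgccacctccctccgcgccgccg

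The element GGCGCC, which reads the same on both strands, began 231 bases before the start in Id2 and 148 bases before it in Id4. It was present in 9.59% of the 32851 promoter windows of that length. The element CAGAC, searched on both strands as CAGAC or GTCTG, first occurred 167 bases before the start of Id3, and 42.2% of all windows held it. These matches describe the sequence and are not binding sites measured here. Of the 10 genes 8 had a promoter in the table. Id2, Id3 and Id4 are shown because they are the Id genes with a match. No match was recorded for Id1, and whether Id1 was among the 8 is not given here. Among the 8 genes GGCGCC also occurred upstream of Bmpr1a, Bmpr2 and Smad5 and CAGAC upstream of Smad5, so neither element occurred in the Id genes alone.

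Id1, with 1 probe (ILMN_2672190), read 518, 744 and 537 in null lens, and 549.8, 528 and 526 in heterozygous lens. The 5 readings other than null array b had an SD of 0.04 on the log2 scale, and null array b lay 0.48 above their mean. The log2 difference was 0.13 (SE 0.175, 95% confidence interval -0.26 to 0.53, limma adjusted p = 0.964). Without null array b it was -0.03, so the higher mean of null lens came from that array.

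Id2 had 3 tested probes, which disagreed. The brightest (ILMN_1228557) gave 694, 1017 and 1226 in null lens, and 813, 846 and 836 in heterozygous lens. The heterozygous arrays lay close together, while null array a was below and null arrays b and c above all of them. The log2 difference was 0.18 (SE 0.199, limma adjusted p = 0.964), and it was 0.39 without null array a and 0.016 without null array c.

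The second Id2 probe (ILMN_1236868), annotated to a cDNA clone and not to the RefSeq transcript, read 335.5, 199 and 262 in null lens against 281, 274 and 299 in heterozygous lens. Null array a, the lowest of the 6 for the first probe, was the highest for this one, and the log2 difference was -0.19 (SE 0.245), or 0.07 without null array b. Another Id2 probe (ILMN_2887239), which shares its RefSeq transcript with the first, read 109.8, 82.5 and 148 in null lens, and 149, 129 and 130.0 in heterozygous lens. It differed by -0.57 (SE 0.352, limma adjusted p = 0.964), the largest difference of the 17 in size. Leaving out 1 array gave between -0.98 (without null array c, limma unadjusted p = 0.00523, adjusted p = 0.742) and -0.12 (without null array b). On null array b the brightest Id2 probe differed by 0.22 from the mean of the other arrays, and the other two by -0.75 and -1.41. The mean of the 3 probes differed by -0.19, so the sign for Id2 depends on the probe.

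**Figure D3:**
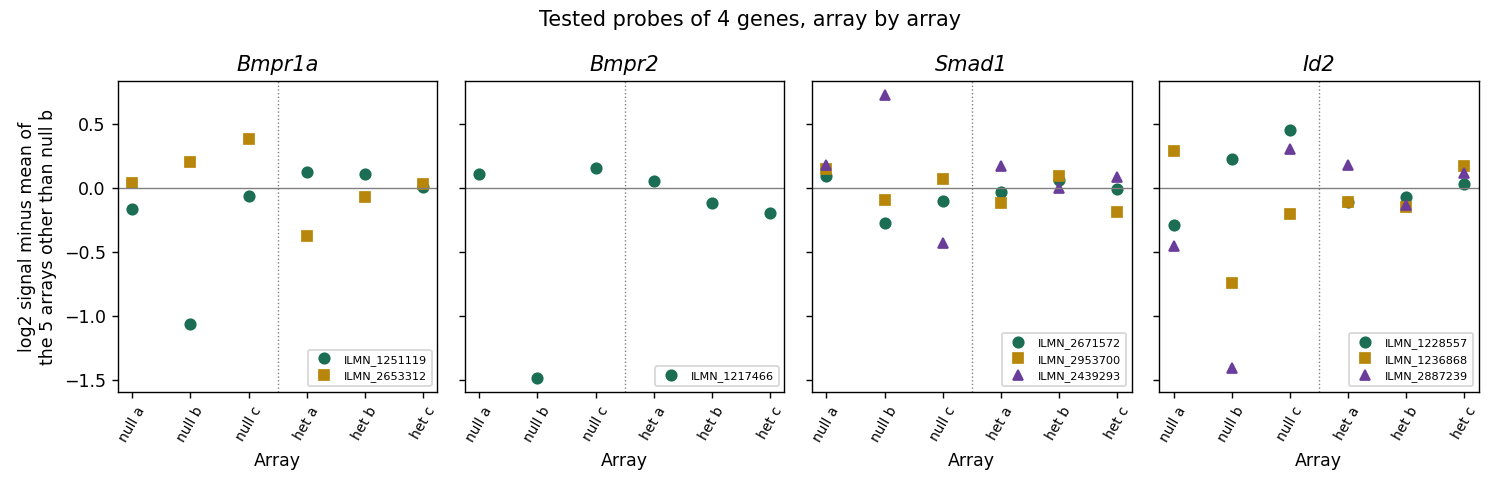
Normalised log2 signal of each tested probe of Bmpr1a, Bmpr2, Smad1 and Id2, minus its mean over the 5 arrays other than null b, with null arrays left and heterozygous arrays (het) right of the dotted line and 1 symbol for each probe. On null array b the Bmpr2 probe lies at -1.48, 1 of 2 Bmpr1a probes at -1.06 and 1 of 3 Id2 probes at -1.41, while other probes of Bmpr1a, Smad1 and Id2 lie above 0 there.

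Id3, with 1 probe (ILMN_2687169), gave 129, 132 and 105 in null lens and 111, 121 and 112 in heterozygous lens. In raw signal null arrays a and b exceeded every heterozygous array, and null array c was the lowest of all. After normalisation heterozygous array a was the lowest, at 5.74 log2 units against 5.78 on null array c. The log2 difference was 0.17 (SE 0.182, 95% confidence interval -0.23 to 0.58, limma adjusted p = 0.964). Unlike Id1, Id3 kept its sign under every alternative tried, with differences of 0.08 to 0.33.

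Id4 lay near background on null array b. Its brighter probe (ILMN_2678714) read 105, 83.0 and 98.7 in null lens, against 95.1, 112 and 94.0 in heterozygous lens. Null array b was the lowest reading and heterozygous array b the highest. The log2 difference was -0.11 (SE 0.232, limma adjusted p = 0.973), and 0.14 without null array b. The other Id4 probe was detected on 2 of 3 null and 1 of 3 heterozygous arrays and differed by 0.04 (SE 0.186), or by -0.10 without null array b.

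Null array b was the farthest array for 10 of the 17 probes, or 58.8%, where the share over all tested probes was 44.2%. It lay over 0.5 log2 units from the mean of the other arrays for 7 of the 17 probes and over 1 unit for 3 of them. Over all tested probes these shares were 25.4% and 3.21%. The signs on null array b were mixed. The tested Bmp4, Bmp7, Smad5, Id1 and Id3 probes lay above the mean of the other arrays, the Bmpr2 probe lay below it, and Bmpr1a, Smad1, Id2 and Id4 each had probes on both sides. No member probe passed without null array b, or with array weights that gave it a weight of 0.208.

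The rest of the pathway was taken from 6 lists of 71 further genes. Of these, 66 had a named probe and 26 a tested one, of which 10 were higher and 16 lower in null lens by sign. None passed in either direction, 0 had an unadjusted limma p under 0.05, and in 0 of the 26 did the groups fail to overlap. Over all 8626 tested genes, 2 passed and 4.01% had an unadjusted limma p under 0.05. Their groups did not overlap for 451 genes with null higher and 529 with null lower. The following values are again those of the 26 pathway genes. Their median log2 difference was -0.08, with a range of -0.33 to 0.19, beside the median of -0.01 over all tested genes.

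Of 13 other ligands with a probe, 11 were detected on no array, Bmp2, Bmp5 and Bmp6 among them. Gdf10, a ligand of the wider family, was the 1 that was tested, at -0.02 (SE 0.177). With the members, the ligands tested were Bmp7 and, near background, Bmp4 and Gdf10. Of the other receptors and co-receptors 6 of 10 were tested, 3 higher and 3 lower. The type I receptor Acvr1 differed by 0.14 (SE 0.148). The next 3 lay near background. The type I receptor Bmpr1b, detected on 3 null arrays and 1 heterozygous array, differed by 0.15 (SE 0.196). The endothelial co-receptor Eng (2 null, 1 heterozygous) differed by 0.15 (SE 0.178) and the co-receptor Rgma (1 null, 2 heterozygous) by -0.21 (SE 0.188).

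Among other SMADs and their regulators 7 of 10 were tested, 3 higher and 4 lower. Smad6, an inhibitory SMAD that is itself induced by BMP, read 92.0, 105 and 85.1 in null lens, and 96.5, 92.8 and 86.7 in heterozygous lens. Its groups overlapped, with a log2 difference of 0.13 (SE 0.169), or -0.01 without null array b. Tob1, which represses SMAD-driven transcription, differed by -0.21 (SE 0.168). The phosphatase gene Ppm1a differed by 0.13, with other probes at 0.145 and 0.211. The corepressor gene Skil differed by -0.11, with another probe at -0.333. Smad4 was not analysed here.

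Extracellular and membrane regulators, most of them BMP antagonists, had 8 tested genes of 18, 3 higher and 5 lower. Crim1, a transmembrane protein that binds BMPs and is known from the lens, read 469, 312 and 525 in null lens against 601, 536 and 420.5 in heterozygous lens. Its groups overlapped, and it differed by -0.33 (SE 0.238), with another probe at -0.46 and the first at -0.06 without null array b. Bmper, a secreted BMP modulator, differed by -0.22 (SE 0.193) and by -0.06 without null array b. The antagonist Chrd, near background and detected on 2 null and 2 heterozygous arrays, differed by -0.18. Bmp1, a protease that cleaves chordin, differed by -0.19, with other Bmp1 probes at 0.06 and 0.16. Noggin (Nog) was detected on 1 heterozygous array and Bambi on none.

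Of the other BMP targets 2 of 12 were tested and 7 were detected on no array. Msx1, a homeobox gene, differed by -0.22 (SE 0.205), and Hey1, a basic helix-loop-helix repressor also driven by Notch, by -0.11 (SE 0.219). Hey1 differed by 0.15 without null array b. Of the E proteins that Id proteins bind, Tcf12 differed by 0.14 (SE 0.239) and Tcf4 by -0.10 (SE 0.226), with other Tcf12 probes at -0.21 and 0.21. Without null array b the probes of Tcf12 and Tcf4 differed by 0.41 and 0.15.

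**Figure D4:**
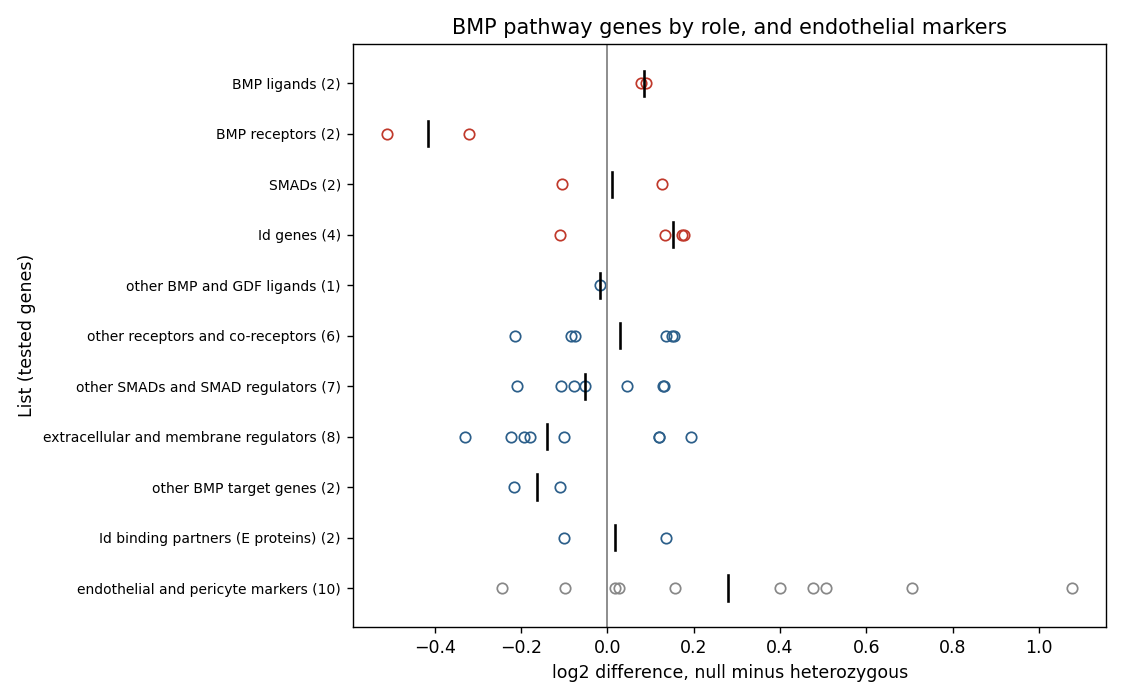
Log2 difference, null minus heterozygous, of each tested gene in the 10 BMP pathway lists (members red, further genes blue) and of endothelial and pericyte markers (grey), with black ticks for list medians and the number of tested genes in brackets. All pathway genes lie between -0.51 and 0.19, and the endothelial list has its median at 0.28 and its highest gene, Rgs5, at 1.08.

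Id1 and Id3 are also known as genes of blood vessel endothelium, and the lens at this age is still wrapped in hyaloid vessels. The summed raw signal of 10 tested endothelial and pericyte markers, of 14 listed, ran from 1369 to 1669 on null arrays and from 1286 to 1509 on heterozygous arrays. Of these 10 genes 8 were higher and 2 lower in null lens, with a median log2 difference of 0.28, and 0 passed. An unadjusted limma p under 0.05 was found for 3, Flt1, Emcn and Rgs5, against 4.01% of all tested genes. Rgs5 differed most, by 1.08 (SE 0.179, limma unadjusted p = 0.000148, adjusted p = 0.362), with all null arrays above all heterozygous arrays. Emcn was detected on 3 null and 0 heterozygous arrays, so it entered the test only through null arrays. Flt1 and Rgs5 were each detected on 3 null arrays and 1 heterozygous array. Among the markers not tested, Tie1 was detected on no array. The marker sum was highest on null array b, which also had the highest raw Id1 and Id3 readings. Egfl7 was a large part of the sum on every array. It read 582, 728.4 and 537 on null arrays, and 511, 596 and 536.5 on heterozygous arrays. By the median log2 deviation of the 10 markers null array a was highest, at 0.19 against 0.14 on null array b. Null array a had the lowest raw Id1 reading of the 6 and the highest normalised Id3 value, 6.28 against 6.23 on null array b. Red blood cell markers, 4 tested genes of 6, summed to between 671 and 1254 on null arrays and between 493 and 949.5 on heterozygous arrays (raw signal). All 4 were higher in null lens by sign, with a median log2 difference of 0.71, and 0 passed. Of 3 tested mesenchyme markers 2 were higher, with a median of 0.31, and 1 of them, Foxc1, differed by 0.52 (SE 0.158, limma unadjusted p = 0.00849, adjusted p = 0.964) with all null arrays above all heterozygous arrays. Of 3 tested macrophage markers 2 were higher, with a median of 0.03. Neither list had a gene that passed. In whole lens RNA, a change in the number of cells of a type cannot be told apart from a change in RNA per cell. The part of these other cell types in the Id signals was not tested.

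Lens epithelium markers summed to between 15773 and 20173 on null arrays and between 19388 and 20413 on heterozygous arrays over 10 tested genes of 12. Of these 10 genes 5 were higher and 5 lower. Dkk3 was a large part of each sum, with 12320, 7931 and 12490 on null arrays and 13370, 12560 and 13380 on heterozygous arrays. Fiber markers summed to between 205652 and 223140 in null lens and between 210084 and 222659 in heterozygous lens over 11 tested genes of 14, 9 higher and 2 lower. Whether the balance of epithelium and fibers bears on the BMP and Id values was not tested.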

How the data were processed

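Total lens RNA was labelled as biotinylated cRNA with a TotalPrep kit from Illumina, per the protocols in the labels, and hybridised to 6 bead arrays. The deposited raw table gives, per the file headers, an intensity and a detection p-value for every probe on every array, and from the values these intensity readings are linear and not scaled between arrays. How the scanner corrected background is not given in the sources used here. A second deposited table holds the authors' normalised intensity values, each column being a straight line of a raw column. Raw columns name only the genotype, so array letters follow the table's order and pair nothing.

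The platform annotation gave 1 gene symbol for 34885 of 45281 probes, several for 18 and none for 10378, and RefSeq changed 0 of the symbols. The neqc function of limma 3.58.1 under R 4.3.3 corrected background (negative controls were inferred from detection p-values, offset 16), quantile-normalised and took log2. This offset compresses differences near background. The filter required a detection p below 0.05 on 3 or more of the 6 arrays and left 14636 probes. The model had genotype alone (lmFit, eBayes, two-sided), with Benjamini-Hochberg adjustment and a limit of 0.05. The probe with the highest mean log2 signal among the tested ones stands for its gene. The fit was tested on simulated data, and 0 pairs of arrays held the same values.

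The members and all lists were chosen with earlier results of these data known. The rule for named genes took Tdrd7, all member probes and up to 4 genes of smallest p from each of 6 further lists. Bmp2, Bmp5, Bmp6, Nog, Bambi and Tie1 (for their detection), Egfl7, Flt1, Emcn, Rgs5, Foxc1 and Dkk3 were named after their values were seen. Lists were described by counts and medians, without a set test. Alternatives covered background, normalisation, filter, variance model, probe choice, the authors' values, a replicate block and leaving out each array.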

Additional observations from a re-analysis of the deposited data

How the results depend on the processing

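No member probe and no further pathway gene passed under any alternative run: normexp with an offset of 50, no background step, median scaling, the authors' values, no filter, detection on all 6 arrays, array weights, a trended robust fit, probe means per gene, or leaving out each array. The smallest adjusted p of a member probe in these fits was 0.508, with array weights, where null array b had a weight of 0.208. Between 0 and 2 member probes had an unadjusted limma p under 0.05, depending on the setting. With no filter there were 2 of 24, beside 2261 of all 45281 probes. Without null array c there were 2 of 17, beside 859 of 14636. Median scaling gave 1 of 17 beside 644 of 14636, and leaving out null array a gave 1 of 17 beside 784 of 14636. The number of detected member probes was 14 at a detection p under 0.01, 14 if all 6 arrays were required and 18 for any array, against 17.

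Signs were less stable. Of 257 refits of a member probe's difference 22 changed sign and 0 passed. With array weights the signs turned for Bmp7 (-0.054), the Bmpr2 probe (0.12), the Smad1 probe ILMN_2671572 (0.026), the Smad5 probe ILMN_3076864 (-0.046), the Id2 probes ILMN_1228557 (-0.075) and ILMN_1236868 (0.21), the Id4 probes ILMN_2678714 (0.11) and ILMN_1232416 (-0.18), Gdf10 (0.045), Skil (0.10), Hey1 (0.13) and Tcf4 (0.033). With probe means per gene they turned for Smad1 (0.027), Id2 (-0.19) and Bmp1 (0.0070). Gdf10 turned with normexp (0.0094), no background step (0.0087) and the authors' values with or without the replicate block (0.014). Leaving out 1 array at a time turned a sign in these cases, most often without null array b. The difference ran for Bmp4 from -0.079 to 0.31, for Bmp7 from -0.0099 to 0.19, for Bmpr2 from -0.603 to 0.22, for Smad1 probe ILMN_2439293 from -0.21 to 0.37, for Smad5 probe ILMN_3076864 from -0.021 to 0.29, for Id1 from -0.034 to 0.22, for Id2 probe ILMN_1236868 from -0.45 to 0.072, for Id4 probe ILMN_2678714 from -0.25 to 0.14. It ran for Id4 probe ILMN_1232416 from -0.097 to 0.18, for Gdf10 from -0.18 to 0.090, for Bmpr1b from -0.0060 to 0.34, for Smad6 from -0.014 to 0.23, for Skil from -0.24 to 0.14, for Hey1 from -0.26 to 0.15, for Tcf12 from -0.015 to 0.41, for Tcf4 from -0.27 to 0.15. The sign turned without heterozygous array b for Bmp4, Gdf10 and the Id4 probe ILMN_2678714, without heterozygous array a for Bmpr1b, Tcf4 and the Id4 probe ILMN_1232416, without heterozygous array c for Gdf10 and without null array c for Tcf12.

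With the replicate number as a block, fitted on the authors' values because their columns carry the numbers, 0 member probes and 0 pathway genes passed. Same-numbered arrays did not deviate together in all pairs (correlations of 0.16, -0.15 and -0.15 over tested probes), so the numbers were not taken as a pairing. Signal over background limits 1 probe each of Bmp4, Smad5 and Id4, which were detected on 3 of the 6 arrays.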
